A study of Mus musculus with 5 samples.

Results

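The genes described here encode the lysosome and the machinery of autophagy, in ID8 cells, a mouse ovarian surface epithelial cancer line. A list of 39 genes was taken by symbol and role, and 37 of them had a probe set annotated to that gene alone, out of 12393 genes measured in the same way. Tfe3 and Cd63 had none in the annotation used here. Where several probe sets matched a gene, the brightest on average stood for it. By role, the measured genes are 2 MiT/TFE transcription factors, 4 lysosomal membrane proteins, 7 cathepsins, 9 other hydrolases and cofactors, 7 proton pump subunits and 8 autophagy genes.

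The study compared ID8 cells kept in DMEM medium and 10% fetal bovine serum (FBS, labelled id8, replicates 1, 2 and 3) with ID8 cells kept for 7 days in 10% ascites fluid drawn from mice carrying ID8 tumours (labelled ASid8, replicates 2 and 3). Neither the length of the FBS culture nor any FBS in the ascites medium is stated clearly. No genotype or drug differs between the groups in the labels. Total RNA was measured on Affymetrix arrays, and the replicates are not labelled as separate cultures, so p values reflect no more than array-to-array spread, possibly technical.

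All values of single arrays are log2 signals, and differences are ascites minus FBS on that scale. The FBS arrays were not equally alike. Over the 37 genes, the difference between replicates 1 and 2 had an SD of 0.0899, that between replicate 3 and either of them 0.791, and that between the ascites arrays 0.26. Over all genes these were 0.117, 0.427 and 0.239. Markers of the labelled cells were read, with keratin 18 (Krt18) between 13.15 and 13.53 in FBS and between 11.76 and 12.16 in ascites. Keratin 7 (Krt7), the lowest in mean signal, lay between 5.66 and 8.08 in FBS and between 5.12 and 5.37 in ascites. Without a detection call, the presence of each marker was not tested. The 8 measured markers had per-array medians of 12.24 to 12.97 in FBS and 11.54 to 12.09 in ascites. The arrays of 7 of the 8 did not overlap and were lower in ascites, as were those of 19.4% of all genes. The median difference of the 8 was -1.43. At least 2-fold lower were 5 of them, and 418 of all 12393 genes. Krt18 and Krt19 passed the test and fell, where 2.59% of all genes did. Bnc1 (-3.19), Upk3b (-2.30), Krt7 (-2.0), Wt1 (-1.43) and Krt8 (-0.94) were lower and did not pass, and Msln was higher (0.37, not passed). FBS replicate 3 already lay below the other FBS arrays in these markers, with a median difference of -0.96. The part of these shifts in the results on lysosome and autophagy genes was not tested. Macrophages are rich in lysosomes, so 12 myeloid markers were read as well. Their per-array medians were 5.30 to 5.48 in FBS and 5.44 to 5.60 in ascites, the log2 of their summed signal was 9.17 to 9.35 and 9.27 to 9.48, and 0 of 12 passed in limma (0 at an unadjusted p under 0.05). Of the 12, 8 had a higher mean in ascites (66.7%, against 50.5% of all genes) and 4 a lower one, with differences from -0.15 to 0.52. The highest were Cd68 (0.52), at 6.71, 6.59 and 5.35 in FBS and 6.88 and 6.59 in ascites, and Cd14 (0.38). Ptprc, which marks leukocytes, read 3.34 to 3.51 in FBS and 3.37 to 3.43 in ascites. The array gives no detection call, so these values cannot be set against a background. In such bulk RNA, fewer cells of a type and less RNA per cell cannot be told apart.

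Lysosomes break down material delivered by endocytosis and by autophagy. A V-type ATPase pumps protons into them, and the acid activates cathepsins, which are proteases, and other hydrolases, which cut glycans and lipids. The transcription factors TFEB, TFE3 and MITF bind a motif built around the E-box CACGTG in the promoters of many of these genes. Nutrient signalling through mTORC1 at the lysosome surface holds these factors in the cytoplasm, so their activity is set largely by their location and not by transcript level alone.

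Promoter windows from RefSeq (build GRCm38.p6, 250 bases before to 50 bases after each annotated start) were matched to 29 of the 37 genes by symbol. The E-box CACGTG reads the same on both strands. It was present in 13 of these 29 genes (44.8%), against 10.8% of the 9887 array genes with a window. Of all 27025 genes with a window, 8.09% held it. The longer form TCACGTGA, also the same on both strands, was present in 6 of the 29 (20.7%, against 1.76% and 1.12% of these genes). The form GTCACGTG, read on either strand, was present in 8 (27.6%, against 4.05% and 2.55%). Both longer forms contain the E-box. The motif was looked for because it is known from promoters of such genes, so these shares are not an independent result. A match is a description of the letters, not a site shown to be bound.

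The stretches below are those of the genes with an E-box upstream of the start whose FBS and ascites arrays did not overlap, and they show how differently placed and flanked the E-box (capitals) is among them. Each is written 5′ to 3′ on the strand of the gene, upstream of the annotated start.
Lamp1, chr8:13159070-13159160, + strand: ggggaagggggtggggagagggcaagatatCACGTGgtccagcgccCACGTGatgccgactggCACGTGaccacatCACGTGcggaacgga
Glb1, chr9:114401000-114401077, + strand: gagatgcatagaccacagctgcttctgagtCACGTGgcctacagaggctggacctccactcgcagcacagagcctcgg
Gaa, chr11:119267793-119267892, + strand: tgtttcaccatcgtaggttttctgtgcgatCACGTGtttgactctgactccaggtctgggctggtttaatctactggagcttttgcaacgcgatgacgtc
Atg7, chr6:114670934-114671033, + strand: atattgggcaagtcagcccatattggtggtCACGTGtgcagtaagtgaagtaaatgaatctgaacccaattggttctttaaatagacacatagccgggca
Atp6v1a, chr16:44139321-44139420, - strand: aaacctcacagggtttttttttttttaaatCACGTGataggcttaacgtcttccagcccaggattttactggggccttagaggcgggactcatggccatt
Ctsl, chr13:64370671-64370770, - strand: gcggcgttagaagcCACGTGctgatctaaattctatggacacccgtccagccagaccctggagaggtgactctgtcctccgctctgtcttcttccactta

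Lamp1 holds 4 E-boxes, beginning 61, 45, 28 and 15 bases before its start, and Glb1 holds 1 at 48 bases. The E-boxes of Gaa, Atg7 and Atp6v1a begin 131 to 140 bases before the start, and that of Ctsl lies 236 bases before it. The same letters stood in genes whose signals were higher in ascites and in Glb1, which fell. Of the 13 genes with an E-box, 9 had a higher and 4 a lower mean in ascites (median log2 change 0.43, range -1.30 to 0.93). Of the 16 genes without one, 10 were higher and 6 lower (median 0.08, range -0.91 to 2.20), where 50.5% of all genes were higher. No test was made of this split.

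**Figure D1:**
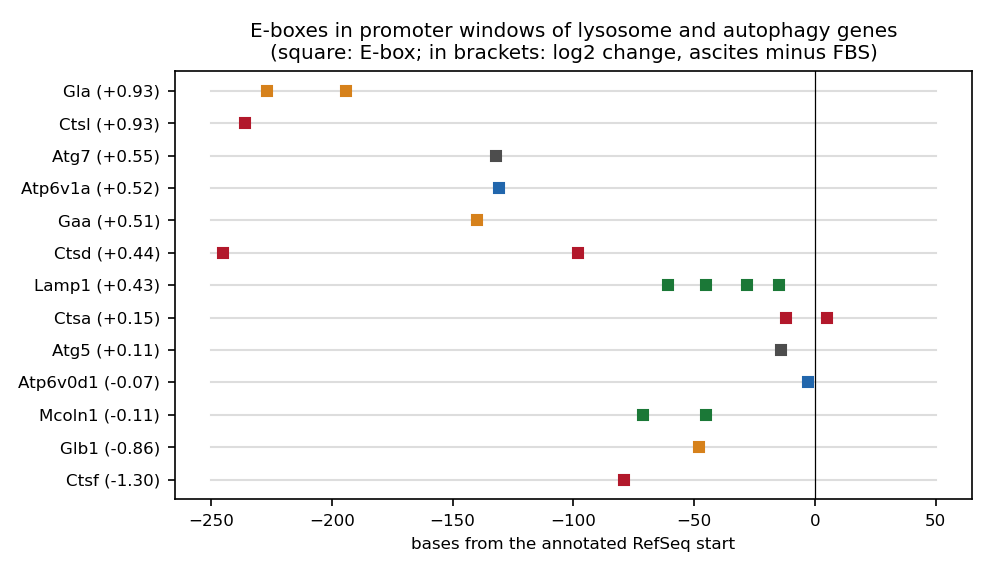
Position of each E-box (square) relative to the annotated RefSeq start in the promoter windows of the 13 lysosome and autophagy genes that hold one, with the log2 change of the gene, ascites minus FBS, in brackets. Genes are ordered from Gla and Ctsl (0.93) to Ctsf (-1.30), and Lamp1 holds 4 E-boxes close to its start.

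Of the 37 genes, 5 changed between FBS and ascites by limma at an adjusted p under 0.05, where 5.28% of all genes did. Sqstm1 and Mitf rose (2.69% of all genes rose) and Tfeb, Ctsh and Glb1 fell (2.59% fell). The median log2 change of the 37 genes was 0.11, against 0.00 over all genes, and their median absolute change was 0.43, against 0.16. The 37 genes were also brighter, with a median FBS signal of 10.99 against 8.13 over all genes. They were not set against genes of like signal, and the part of brightness in these shares was not tested. The groups' arrays did not overlap in 17 of the 37 genes, 11 higher and 6 lower in ascites, where 38.0% of all genes did not overlap (18.6% higher and 19.4% lower). At an unadjusted p under 0.05 there were 14 of the 37, where 24.2% of all genes passed. All 5 calls were lost when any 1 array other than FBS replicate 3 was left out, that is, FBS replicate 1 or 2 or either ascites array, and 0 of all genes then passed (2016 to 2748 genes at an unadjusted p under 0.05). Leaving out an ascites array leaves 1, which is assumed to vary like the FBS arrays, so losing every call there says nothing about single genes. With FBS replicates 1 and 2 averaged as 1 sample, 0 genes passed as well (2128 at an unadjusted p under 0.05). Without FBS replicate 3, 14 of the 37 passed, the same 5 among them, where 20.1% of all genes did.

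**Figure D2:**
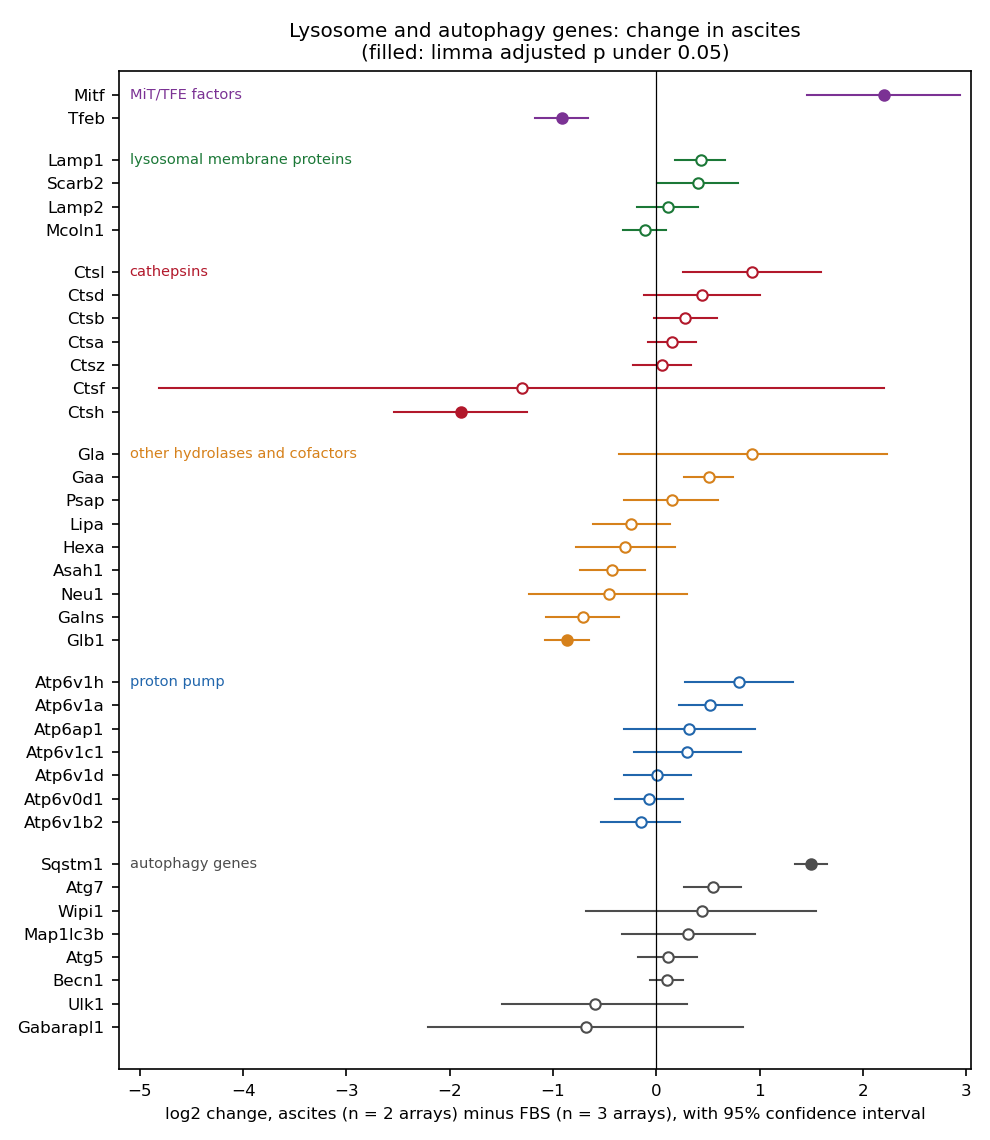
Log2 change (ascites minus FBS, 2 against 3 arrays) with limma's 95% confidence interval for the 37 genes, grouped by role; filled circles passed an adjusted p of 0.05. Sqstm1, Mitf, Tfeb, Ctsh and Glb1 are filled, and Ctsf has the widest interval.

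The MiT/TFE factors moved in opposite directions. Tfeb, which encodes the main activator of lysosomal genes in many cells, read 9.56, 9.71 and 9.46 in FBS and 8.62 and 8.71 in ascites. Both ascites arrays lay below every FBS array, with no overlap. Tfeb was 1.88-fold lower (log2 change -0.91, SE 0.09, 95% confidence interval -1.17 to -0.66, limma adjusted p = 0.0245). Leaving out each array in turn gave changes between -0.97 and -0.84, with adjusted p between 0.0142 and 0.16.

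Mitf, the family member known for pigment cells and osteoclasts, read 4.94, 4.85 and 5.47 in FBS and 7.01 and 7.57 in ascites. Both ascites arrays lay above every FBS array. The log2 change was 2.20 (SE 0.27, limma adjusted p = 0.0337). These FBS signals are low and carry no detection call, so the difference is left on the log2 scale. A further Mitf probe set was lower in signal, reading 3.70, 3.85 and 3.87 in FBS and 3.87 and 4.61 in ascites, and its difference was 0.43. With the probe sets averaged, Mitf differed by 1.32 and the call was lost. The arrays do not say which Mitf promoter or isoform was measured.

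**Figure D3:**
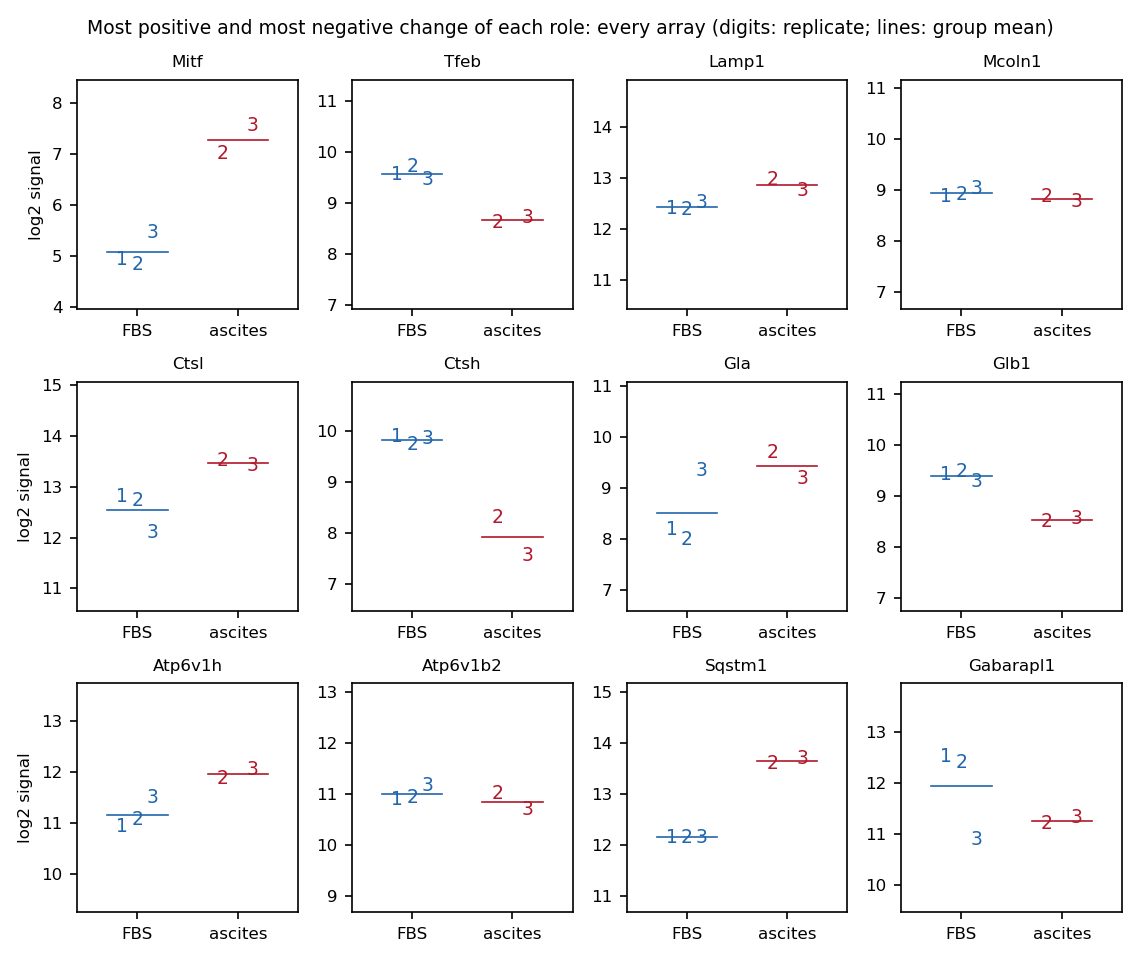
Log2 signal of every array (digits give the replicate, lines the group mean) for the gene with the most positive and the gene with the most negative change in each role; each panel spans the same log2 range. In Mitf, Tfeb, Ctsh, Glb1 and Sqstm1 the groups are clearly apart, while in Gla and Gabarapl1 FBS replicate 3 lies among or below the ascites arrays.

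Among the autophagy genes, Sqstm1 rose and 0 of 8 fell, where 2.69% of all genes rose and 2.59% fell. Sqstm1 encodes p62, the receptor that links ubiquitinated cargo to the autophagosome and is itself degraded there. It read 12.16 on each of the 3 FBS arrays, and 13.60 and 13.71 in ascites. The ascites arrays were thus close together and well above all FBS arrays. Sqstm1 was 2.82-fold higher (log2 change 1.50, SE 0.06, 95% confidence interval 1.34 to 1.65, adjusted p = 0.0107), the lowest adjusted p among the 37 genes. Values equal to the 2 decimals deposited on all FBS arrays were found for 4.73% of all genes, but for only 3 of the 654 changed genes. The change was 1.44 to 1.55 when each array was left out, and the adjusted p ranged from 0.00737 to 0.139.

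The other autophagy genes did not pass over all arrays. Atg7, which encodes the E1-like enzyme that starts LC3 lipidation, read 8.51, 8.62 and 8.77 in FBS and 9.25 and 9.11 in ascites. Both ascites arrays were the highest, and the difference was 0.55 (SE 0.10, adjusted p = 0.0635), with 0.65 and 0.08 in its other probe sets. Atg7 passed without FBS replicate 3 (0.62, adjusted p = 0.0278), after quantile normalization (adjusted p = 0.0462) and with array weights (adjusted p = 0.0185), but not with its probe sets averaged (0.42, adjusted p = 0.126). Becn1, a subunit of the lipid kinase complex that starts the autophagosome, differed by 0.10 (95% confidence interval -0.06 to 0.26) and Atg5, part of the LC3 conjugation complex, by 0.11 (-0.18 to 0.39). The Becn1 arrays did not overlap, though by a small margin, and its other 3 probe sets differed by 0.28 to 0.31. Their mean signals were 10.49, 5.74 and 4.96, against 10.72 for the one used. With all averaged, Becn1 differed by 0.25 (adjusted p = 0.0731). Map1lc3b, which encodes LC3B itself, differed by 0.31 (SE 0.24), and by -0.01 to 0.21 in its other probe sets. The value of -0.01 came from a probe set of lower signal (mean 5.62).

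In the remaining autophagy genes FBS replicate 3 set the spread. Gabarapl1, an LC3 relative, read 12.53 and 12.40 in FBS replicates 1 and 2, 10.90 in replicate 3, and 11.20 and 11.32 in ascites. Ulk1, the kinase that initiates autophagy, read 10.59 and 10.70, then 9.74, and 9.68 and 9.82 in ascites. In these genes the ascites arrays lay near FBS replicate 3 and below replicates 1 and 2. Wipi1, a phosphoinositide-binding protein of the forming autophagosome, differed: it read 9.45 and 9.46, then 8.31, and 9.45 and 9.57 in ascites. There the ascites arrays lay with FBS replicates 1 and 2. The differences over all arrays were -0.68 (SE 0.57) for Gabarapl1, -0.59 (SE 0.33) for Ulk1 and 0.44 (SE 0.41) for Wipi1, and none passed. Without FBS replicate 3, Gabarapl1 differed by -1.20 (adjusted p = 0.0116) and Ulk1 by -0.89 (adjusted p = 0.0161), both past the threshold, and Wipi1 by 0.05. The probe set of Gabarapl1 is of a kind (suffix s) that can match related transcripts, but its other probe set had the same pattern, with a difference of -0.54.

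The lower autophagy signals of FBS replicate 3 extended beyond these genes. By the probe sets used, replicate 3 lay at least 0.5 below the mean of replicates 1 and 2 in 4 of the 8 autophagy genes. These were Gabarapl1, Wipi1, Ulk1 and Map1lc3b, and replicate 3 lay at least 0.5 above that mean in 0. In a further list of 29 measured autophagy genes it did so in 12 and 0, respectively. The median difference was -0.38 in each of these lists, against 0.01 over all genes, of which 8.71% lay at least 0.5 lower and 7.45% at least 0.5 higher. The proton pump subunits lay the other way, with 6 of 7 higher in replicate 3 and a median difference of 0.31, while 8 of 14 other pump subunits were higher and 5 lower, with a median of 0.10. Over all genes 6435 of 12393 were higher in replicate 3. The lower autophagy signals varied by probe set. In FBS replicates 1, 2 and 3 the other Ulk1 probe set read 7.11, 6.86 and 6.85. For Wipi1, a further probe set read 7.14, 7.14 and 6.41, but another read 6.88, 6.88 and 6.83. For Map1lc3b, a further probe set read 11.43, 11.44 and 10.77, but another read 11.40, 11.42 and 11.44. These are differences of 1 array, with no replicate and no test.

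**Figure D4:**
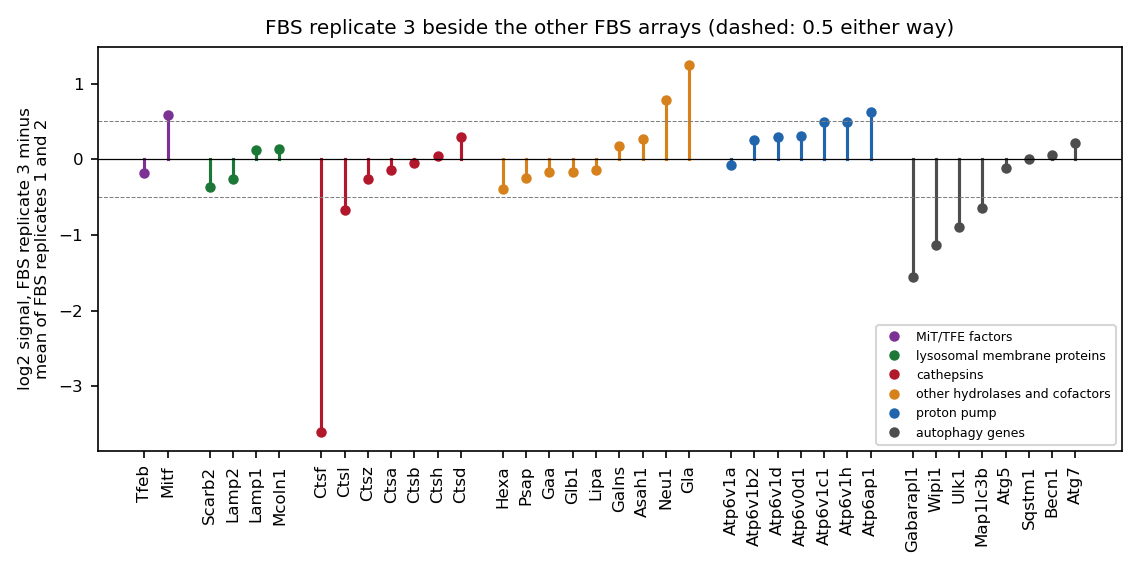
Log2 signal of FBS replicate 3 minus the mean of FBS replicates 1 and 2 for the 37 genes, by role; dashed lines mark 0.5 either way. Ctsf (-3.61), Ctsl (-0.67) and 4 autophagy genes lie below the lower line, and Gla (1.24), Neu1, Atp6ap1 and Mitf above the upper one.

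The cathepsins did not share a direction: Ctsh fell, 0 of 7 rose, and 5 of 7 had a higher mean in ascites (median log2 change 0.15). Over all genes 50.5% had a higher mean, 2.69% rose and 2.59% fell. Ctsh, a cysteine protease with aminopeptidase activity, read 9.89, 9.73 and 9.85 in FBS and 8.30 and 7.56 in ascites. The ascites arrays lay far below the FBS arrays but were further from each other than in any other of the 37 genes. Ctsh signal was lower by 3.71-fold (log2 change -1.89, SE 0.24, limma adjusted p = 0.0342; -2.26 to -1.52 and adjusted p of 0.0408 to 0.184 when each array was left out). Ctsl, a cysteine endopeptidase, lay the other way, at 12.80, 12.73 and 12.10 in FBS and 13.52 and 13.42 in ascites. Its ascites arrays were above all FBS arrays, and the difference of 0.93 (SE 0.25, adjusted p = 0.114) did not pass. Without FBS replicate 3 it was 0.70 and passed (adjusted p = 0.0152).

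Ctsf, another cysteine cathepsin, had the largest spread. It read 9.61 and 9.54 in FBS replicates 1 and 2, 5.96 in replicate 3, and 7.22 and 6.91 in ascites. FBS replicate 3 was thus lower than the ascites arrays, and the difference over all arrays was -1.30 (SE 1.30, adjusted p = 0.601). Without that array it was -2.51 and passed (adjusted p = 0.00936). Ctsb, Ctsd, Ctsa and Ctsz differed by 0.28, 0.44, 0.15 and 0.06, and none passed. The other 3 probe sets of Ctsb, a broadly expressed cysteine cathepsin, were all higher in ascites, by 0.67 to 0.92, so its value of 0.28 is the lowest of its probe sets.

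Among the 9 other hydrolases and cofactors, Glb1 fell, 0 rose, and 6 had a lower mean in ascites (median log2 change -0.30). Over all genes 49.5% had a lower mean, 2.69% rose and 2.59% fell. Glb1, the lysosomal beta-galactosidase whose activity at raised pH is used as a stain for senescent cells, read 9.41, 9.48 and 9.28 in FBS and 8.50 and 8.55 in ascites. The groups were apart by more than the spread of either. Glb1 was 1.82-fold lower (log2 change -0.86, SE 0.08, 95% confidence interval -1.08 to -0.65, adjusted p = 0.0216; -0.92 to -0.82 and adjusted p of 0.00928 to 0.151 when each array was left out). Its partners in a lysosomal complex, the protective protein Ctsa and the sialidase Neu1, differed by 0.15 (SE 0.08) and -0.46 (SE 0.28) and did not pass. Neu1 was lower in both ascites arrays (8.13 and 8.04) than in the FBS arrays (8.31, 8.27 and 9.07). Its other probe sets differed by 0.36 and 0.06, but were lower in signal, with means of 5.44 and 5.21 against 8.36.

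Galns, a sulfatase for keratan sulfate, read 7.50, 7.44 and 7.65 in FBS and 6.65 and 6.98 in ascites, with a difference of -0.71 (SE 0.13, adjusted p = 0.0609). Asah1, acid ceramidase, was also lower on both ascites arrays, by -0.43 (SE 0.12, adjusted p = 0.121). Gaa, which degrades lysosomal glycogen, lay the other way, at 10.12, 10.12 and 9.95 in FBS and 10.64 and 10.50 in ascites. Its difference was 0.51 (SE 0.09, adjusted p = 0.0553), just short of the threshold, and its other probe set differed by 0.56. With the probe sets averaged Gaa passed. Gla, alpha-galactosidase A, read 8.19 and 7.98 in FBS replicates 1 and 2 but 9.33 in replicate 3, and 9.69 and 9.18 in ascites, so the groups overlapped (0.93, SE 0.48). Without FBS replicate 3, Gla differed by 1.35 (adjusted p = 0.0422). The high signal of replicate 3 was absent from the other Gla probe set, which was lower in signal. That probe set read 5.48, 5.39 and 5.05 in FBS and 6.15 and 5.78 in ascites, without overlap, and differed by 0.66. Hexa, Psap and Lipa differed by -0.30, 0.15 and -0.24 with overlapping arrays.

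The proton pump showed no call: 0 of 7 subunits passed in limma, and the median log2 change was 0.30. At an unadjusted p under 0.05 there were 2 of 7 (28.6%), both higher in ascites. Of all genes 24.2% reached this, 11.7% as higher. Atp6v1h, the regulatory subunit H of the cytosolic V1 part, read 10.94, 11.06 and 11.49 in FBS and 11.88 and 12.05 in ascites. Atp6v1a, the catalytic subunit A, read 11.51, 11.42 and 11.39 in FBS and 12.12 and 11.81 in ascites. In both genes the ascites arrays were the highest. The differences were 0.80 (SE 0.19, adjusted p = 0.095) and 0.52 (SE 0.11, adjusted p = 0.08), and the other probe set of Atp6v1a differed by 0.62. Without FBS replicate 3, Atp6v1h (0.96, adjusted p = 0.0171) and the accessory subunit Atp6ap1 (0.53, adjusted p = 0.0201) passed. With the probe sets averaged Atp6v1a passed. Atp6v1c1, subunit C, differed by 0.30 (adjusted p = 0.436), and Atp6v1b2, Atp6v0d1 and Atp6v1d by -0.15, -0.07 and 0.01, with intervals inside -0.54 to 0.34.

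The lysosomal membrane proteins also showed no call, with 0 of 4 past the threshold in limma. At an unadjusted p under 0.05 there were 2 of only 4, where 24.2% of all genes passed. Lamp1, an abundant glycoprotein that lines the lysosomal membrane, read 12.39, 12.38 and 12.51 in FBS and 12.96 and 12.75 in ascites. Both ascites arrays were higher, and the difference was 0.43 (SE 0.09, adjusted p = 0.0782). Scarb2, the receptor that carries glucocerebrosidase to the lysosome, was also higher on both ascites arrays (0.40, SE 0.14, adjusted p = 0.196). The other Scarb2 probe set differed by 0.10. Lamp2, a relative of Lamp1, differed by 0.11 (95% confidence interval -0.19 to 0.40), the lowest of its probe sets, the others reading 0.13, 0.38 and 0.53, and with all averaged by 0.29 (adjusted p = 0.15). Mcoln1, the lysosomal calcium channel, differed by -0.11 (-0.32 to 0.09), and by -0.04 in its other probe set.

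Further genes of the same pathways were read in 5 lists. Of their 110 measured genes, 0 rose and 3 fell in limma (31 at an unadjusted p under 0.05, 14 higher and 17 lower), and the median log2 change was 0.00. These counts are 2.73% fallen and 28.2% at the unadjusted threshold, near the 2.59% and 24.2% of all genes. Of 27 other lysosomal hydrolases and cofactors 1 fell, Galc, which degrades galactosylceramide. It read 9.55, 9.64 and 9.40 in FBS and 8.64 and 8.32 in ascites, and was 2.07-fold lower (-1.05, adjusted p = 0.0341). With its probe sets averaged it differed by -0.53 and still passed (adjusted p = 0.028). The median of that list was -0.26, and 17 of 27 (63.0%) had a lower mean in ascites, against 49.5% of all genes. Of the 9 hydrolases described above 6 (66.7%) did. Those 9 leave out the 7 cathepsins, of which 2 (28.6%) did, whereas the list of 27 holds cathepsins such as Ctsc.

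Of 17 other lysosomal membrane and sorting proteins 2 fell (11.8%, against 2.59% of all genes), and they act in delivering enzymes to the lysosome. Gnptab, the enzyme that begins the mannose 6-phosphate tag of lysosomal hydrolases, read 10.17, 10.07 and 10.07 in FBS and 8.93 and 8.90 in ascites. Sort1, the sorting receptor sortilin, read 10.84, 10.96 and 10.60 in FBS and 9.37 and 9.35 in ascites. In both genes the ascites arrays nearly coincided, below every FBS array. Gnptab fell to a level 2.28-fold lower (-1.19, SE 0.06, adjusted p = 0.0156) and Sort1 2.71-fold lower (-1.44, SE 0.12, adjusted p = 0.0193). With the probe sets averaged both still passed, at -0.89 (adjusted p = 0.0481) and -1.32 (adjusted p = 0.0172). The receptors that bind the tag, M6pr and Igf2r, differed by 0.04 (95% confidence interval -0.13 to 0.20) and -0.13 (-0.90 to 0.63).

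The other 3 lists held no call in limma. At an unadjusted p under 0.05, which 24.2% of all genes reached, there were 3 of 14 other proton pump subunits (21.4%), and the lowest p was that of Atp6v0a1 (-0.45, SE 0.08, adjusted p = 0.0575). Of 29 other autophagy genes 5 did (17.2%), and the lowest p was that of Trp53inp2 (-1.40, SE 0.26, adjusted p = 0.0624). Of 23 genes of lysosomal nutrient sensing and MiT/TFE control 8 did (34.8%), and the lowest p was that of Sesn1, a negative regulator of mTORC1 (-1.22, SE 0.20, adjusted p = 0.0522). Sesn2, its relative, lay the other way, at 8.90, 8.90 and 8.01 in FBS and 10.08 and 10.31 in ascites (1.59, SE 0.33, adjusted p = 0.0748), and was singled out after its values were seen. The calls of Galc, Gnptab and Sort1 were lost in the same settings as those above. Without FBS replicate 3 there were 28 calls among the 110 genes, where 20.1% of all genes passed.

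**Figure D5:**
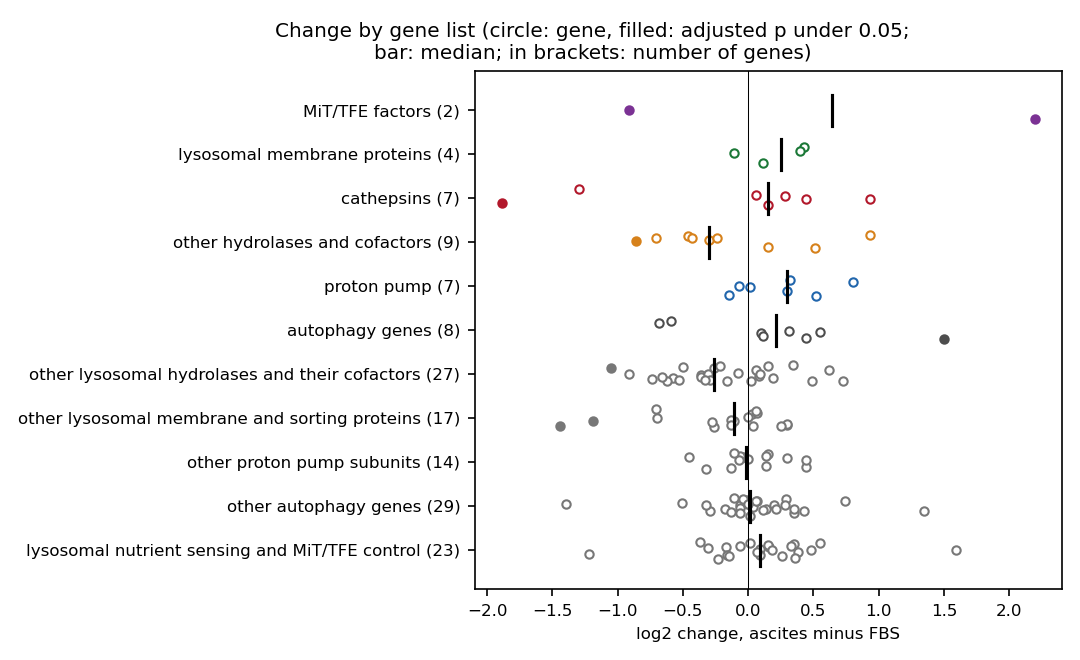
Log2 change, ascites minus FBS, of every measured gene by role (colours) and in the 5 further lists (grey); filled circles passed an adjusted p of 0.05 and bars mark medians. The hydrolase lists have medians of -0.30 (9 genes, no cathepsins) and -0.26 (27 genes, some cathepsins), and the 7 cathepsins 0.15. The proton pump subunits named by role have a median of 0.30, against -0.02 for the other pump subunits.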

How the data were processed

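The authors deposited 1 log2 value per probe set and array, made with Affymetrix Expression Console per the submitters' processing notes. The sources used here do not give its version or algorithm. The scale was judged from the values. Array medians were 7.40 to 7.47, so no further normalization was applied. Such values are blind to a shift in total RNA per cell. Signals of different probe sets are not comparable as levels. Of 22690 probe sets, 64 controls were left out and 20380 were annotated to 1 gene.

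Groups were compared over all 12393 genes by a two-sided moderated test (limma 3.58.1 under R 4.3.3, functions lmFit and eBayes, without covariates, 3 residual and 1.33 prior degrees of freedom), with Benjamini-Hochberg adjustment over all genes, and the calculation was tested on simulated data. No list was tested as a set. The genes and lists were chosen with earlier results of these data known. Values of every array are given for genes past the threshold and for the extremes of each role, and for other genes chosen after their values were seen. From each further list, up to 3 called genes, or the gene with the lowest p, are named.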

Additional observations from a re-analysis of the deposited data

How the results depend on the processing

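Each setting changed 1 choice. The number of genes past the threshold (654) and of lysosome and autophagy genes among them (5) ranged from 0 to 2494 and from 0 to 14 when each array was left out, and the count in the 5 further lists (3) from 0 to 28. All 3 counts were 0 with FBS replicates 1 and 2 averaged (2128 genes at an unadjusted p under 0.05) and with the replicate number as a block (1891), and these fits use fewer samples or have fewer degrees of freedom. With array weights they were 2612 (21.1% of all genes), 15 and 27. The further lists held 6 calls without the lowest 25% of genes and 8 after quantile normalization. The lysosome and autophagy genes held 7 in each, with all 5 calls kept, where 9.51% and 7.14% of all genes tested passed. With an intensity trend the same 5 passed, where 3.86% of all genes did. With the mean of all probe sets 6 passed, 4 of them shared, where 5.67% of all genes did. The midpoint of the 2 MiT/TFE factors, which moved in opposite directions, was then 0.20, against 0.65. The causes were not tested.

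Medians when each array was left out were 0.15 to 0.28 for membrane proteins, 0.09 to 0.22 for cathepsins and -0.42 to -0.22 for other hydrolases. They were 0.17 to 0.47 for the proton pump, 0.09 to 0.31 for autophagy genes and 0.07 to 0.22 for all 37. The MiT/TFE value of 0.48 to 0.81 is only the midpoint of 2 genes that moved in opposite directions, Tfeb and Mitf. Of the 37 genes, 31 kept their direction in all 12 settings. The other 6 had changes near 0 and never passed. Atp6v1d ranged from -0.06 to 0.11, with -0.04 when FBS replicates 1 and 2 were averaged and -0.02 with the replicate block. Ctsz ranged from -0.03 to 0.12 (-0.02 with array weights), Atp6v0d1 from -0.14 to 0.04 (0.02 with array weights), Atp6v1b2 from -0.31 to 0.01, Psap from -0.07 to 0.36 and Atg5 from -0.03 to 0.25.

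FBS and ascites share replicate numbers 2 and 3. Deviations from the group means correlated at 0.03 between arrays numbered 2 and 0.04 between arrays numbered 3. FBS replicate 1, with no partner, gave 0.05 and -0.05. Deviations of 2 ascites arrays mirror each other, so these values cannot decide on pairing, and the numbers are not shown to pair the arrays. The number of arrays limits precision, and without detection calls the background under dim genes such as Mitf is unknown.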
